A study of Homo sapiens with 8 samples.

Results

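BOKU and SKG-I, 2 human cervical cancer cell lines, were compared with each other on the 4 arrays of cells given a control siRNA (siCtrl), which are 4 of the 8 arrays of the series. These arrays show the lines without knockdown, after transfection with the control siRNA. Each line was grown in Ham's F12 medium with serum, transfected by lipofection and harvested after 72 h. Each line gave 1 RNA sample, and that RNA was hybridized in duplicate to 2 GeneChip arrays. The other 4 arrays hold the same lines given an siRNA against IGF2R (siIGF2R) in the same way, again as duplicates of 1 RNA sample per line. Each group is therefore 1 RNA sample of 1 established line, so a property of the line and the state of its culture cannot be told apart.

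A cervical carcinoma can keep the program of the squamous or of the glandular epithelium from which it arose, or take on features of connective tissue cells, a shift known as the epithelial-mesenchymal transition (EMT). Squamous cells hold together by desmosomes and fill with keratins, simple glandular cells carry other keratins and surface proteins such as EPCAM, and cells in EMT replace these contacts with vimentin, fibronectin and integrin attachments to the matrix. Growth factor, TGF-beta and WNT signals act on these programs, and interferon and NF-kB responses set how a tumor cell is seen by the immune system. IGF2R, the target of the other siRNA, is a receptor that carries lysosomal enzymes and takes up IGF2.

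The values are MAS5 signals, scaled intensities on a linear scale, and array medians were 65.3 to 70.1. The mean without the 2% of signals at each end was 500 on the siCtrl array where it was lowest. The paper's methods give a different mean for the scaling of its arrays. A probe set was kept at 500 or more on at least 1 of the 4 siCtrl arrays, which left 15178 of 54675 probe sets (27.8%) and 8412 genes. Differences are the mean log2 signal of BOKU minus that of SKG-I, with the SD that the duplicate arrays give the difference. That SD covers array error alone, since 1 RNA sample per line allows no test between the lines on these arrays. Duplicate log2 signals had an SD of 0.32 for BOKU and 0.28 for SKG-I. Their Pearson correlations across probe sets were 0.986 and 0.987, against 0.53 to 0.536 between the lines. A gene was counted as higher in a line when it differed by at least 2-fold and both arrays of that line lay above both of the other. Where both arrays of the lower line were under 100, the fold is given as a lower bound, computed with signals under 100 set to 100. The lines were also compared over both siRNAs by limma, with 4 RNA samples, the siRNA as a block and Benjamini-Hochberg adjustment over all kept probe sets. With siCtrl, IGF2R itself was measured at 7288 and 6710 on the BOKU arrays and at 4120 and 3838 on the SKG-I arrays, a difference of 0.81 that did not reach 2-fold.

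The 2 lines differed by at least 2-fold in 2827 genes. Of the 8412 genes, 1283 (15.3%) were higher in BOKU and 1544 (18.4%) in SKG-I, and 329 (3.91%) and 330 (3.92%) differed by at least 8-fold. The median difference over all genes was −0.08. In 433 of the 659 genes past 8-fold, both arrays of the lower line were under 100. Over both siRNAs, limma called 3420 probe sets (22.5%) higher in BOKU and 3469 (22.9%) higher in SKG-I.

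**Figure D1:**
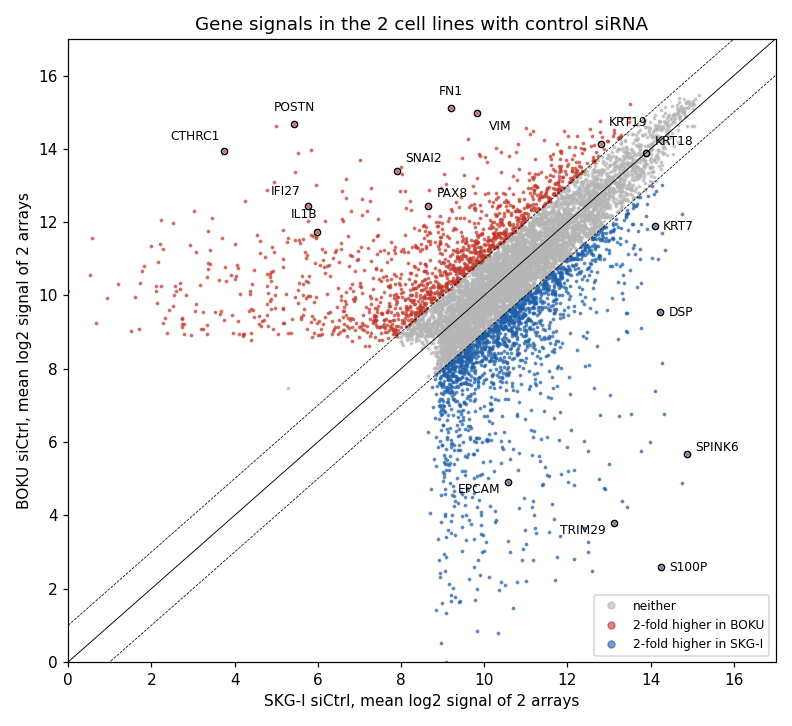
Mean log2 MAS5 signal of each gene on the 2 siCtrl arrays of SKG-I (horizontal axis) and of BOKU (vertical axis), with the diagonal (solid) and the lines of a 2-fold difference (dashed). Red points are the genes at least 2-fold higher in BOKU and blue points those at least 2-fold higher in SKG-I; named genes far off the diagonal, such as POSTN and CTHRC1 above it and S100P and SPINK6 below it, are strong in one line and near the low end of the scale in the other, while KRT18 lies on it.

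The genes furthest apart in the direction of BOKU included several that encode secreted matrix and surface proteins. POSTN, periostin, a matrix protein of connective tissue, had signals of 25345 and 26869 on the BOKU arrays and 54.3 and 34.4 on those of SKG-I, at least 261-fold higher in BOKU. DKK3, a secreted member of the Dickkopf family, had 23139 and 27429 against 47.0 and 21.8. CTHRC1, a secreted protein with a collagen-like stretch, had 16715 and 15048 against 11.3 and 15.7. All 3 were strong on both BOKU arrays and under the array medians on both SKG-I arrays. CLDN11, a claudin of tight junctions, was at least 159-fold higher in BOKU, UCHL1, a ubiquitin hydrolase of neurons, at least 150-fold, and TGM2, a transglutaminase that cross-links proteins, at least 105-fold. SYTL2, a Rab effector of secretion, was 103-fold higher, SPP1, the matrix protein osteopontin, 91.7-fold, NIBAN1 at least 88.3-fold and QPRT, an enzyme of NAD synthesis, at least 82.2-fold. These 10 genes had the largest differences towards BOKU with signals under 100 set to 100.

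The genes furthest apart in the direction of SKG-I included secreted inhibitors, a calcium-binding protein and antioxidant enzymes. SPINK6, a kallikrein inhibitor of the skin, had signals of 29556 and 30623 on the SKG-I arrays and 59.5 and 43.1 on those of BOKU, at least 301-fold higher in SKG-I. MGST1, a microsomal glutathione transferase, had 27291 and 27582 against 16.4 and 52.1. S100P, a calcium-binding protein of many carcinomas, had 18749 and 19936 against 5.54 and 6.51. Each was far above the array medians in SKG-I and under them in BOKU. PEG10, an imprinted gene derived from a retrotransposon, was 189.5-fold higher in SKG-I, SFRP1, a secreted WNT antagonist, at least 161-fold, PRDX2, a peroxiredoxin, at least 139.8-fold, and SERPINB5, the epithelial serpin maspin, at least 111-fold. NPTX1, a pentraxin of neurons, was 109.5-fold higher, ID3, an inhibitor of helix-loop-helix factors, 105-fold and PON3, a lactonase, at least 101-fold. These 10 had the largest differences towards SKG-I by the same measure.

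Gene lists describe these differences by function. A member entered a count where it reached 500 on an array, so a gene on in a single line entered and differed at once. The counts are given as descriptions, with the shares of all genes of 15.3% and 18.4% as the background.

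**Figure D2:**
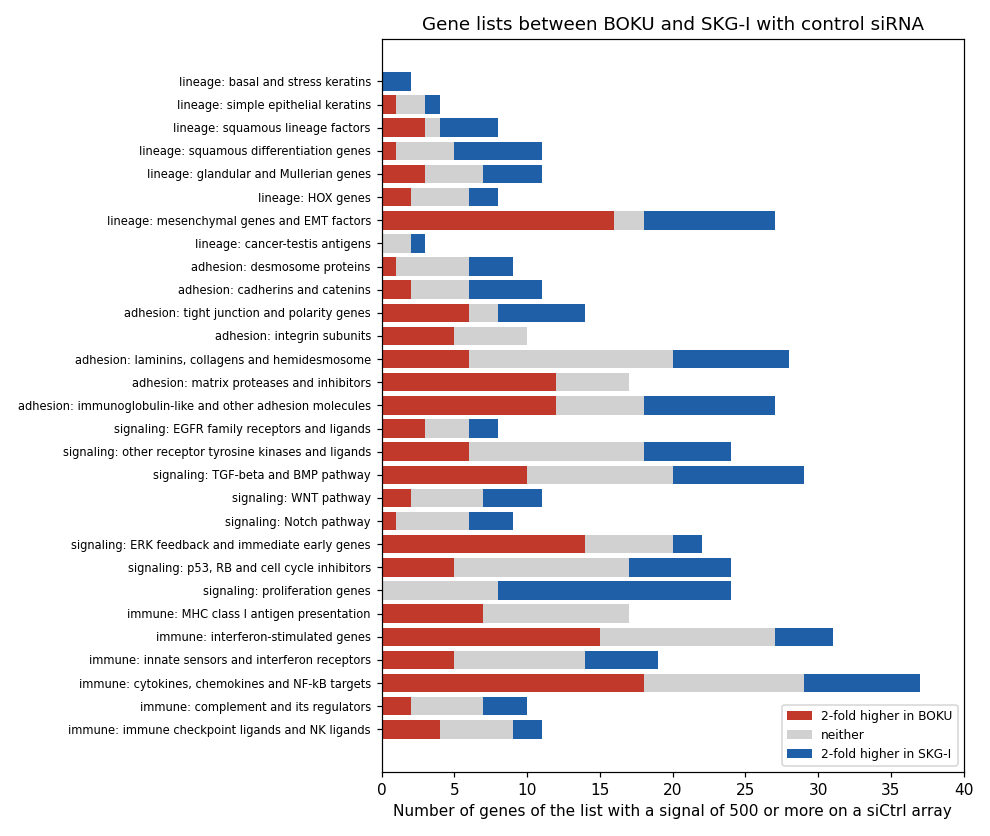
Number of genes in each list that reached a signal of 500 on a siCtrl array (horizontal axis), split into those at least 2-fold higher in BOKU (red), those at least 2-fold higher in SKG-I (blue) and the others (grey). Matrix proteases, integrins and MHC class I genes have no blue part, and proliferation genes no red part.

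Both lines carried keratins of simple epithelium. KRT18 had signals of 14728 and 15766 in BOKU and 14657 and 15720 in SKG-I, and its partner KRT8 had 9676 and 9267 in BOKU against 13953 and 13089 in SKG-I, a difference of −0.51 ± 0.06. KRT18 overlapped between the lines, and KRT8 was below 2-fold. KRT7, a keratin of glandular and transitional epithelium, was 4.65-fold higher in SKG-I, with 17748 and 17342 against 3520 and 4049. KRT19 was 2.51-fold higher in BOKU, with 17112 and 18705 against 7024 and 7222. The basal keratins KRT5 and KRT14 did not exceed 24.0 and 6.02 on any siCtrl array, and the desmosomal cadherin DSG3 did not exceed 34.4, so these 3 markers of basal squamous cells were at the low end of the scale in both lines. SOX2, a squamous lineage factor, did not exceed 139. TP63, another squamous marker, was not analysed here, and only 6 of 11 listed basal and stress keratins had a named probe set. KRT16, a stress keratin, reached 599 and 492 in SKG-I against 3.18 and 1.99 in BOKU, and KRT80 was 2.20-fold higher in SKG-I.

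Squamous differentiation genes were more often higher in SKG-I. Of 11 squamous differentiation genes that reached 500, 6 were higher in SKG-I and 1 in BOKU, with a median difference of −3.57. Since several members were under 100 in BOKU, that size is uncertain, and the median was −2.40 with signals under 100 set to 100 and −2.23 without array 2 of SKG-I. Maspin (SERPINB5) had 10655 and 11566 in SKG-I against 42.8 and 8.17 in BOKU. The surface protein LYPD3 was at least 43.5-fold higher in SKG-I, and PPL, periplakin of the cornified envelope, at least 9.89-fold. The exception was S100A2, a calcium-binding protein of basal epithelium, with 14681 and 14176 in BOKU against 1600 and 1492 in SKG-I. The list holds 58 annotated genes, of which 47 were under 500 on all 4 arrays. Among 8 squamous lineage factors that reached 500, 3 were higher in BOKU and 4 in SKG-I. TRIM29, a regulator found in stratified epithelium, had 9571 and 8379 in SKG-I against 6.68 and 28.9 in BOKU. The AP-2 factors TFAP2C and TFAP2A were 5.29-fold and 3.10-fold higher in SKG-I. BNC1, basonuclin of basal keratinocytes, was at least 20.8-fold higher in BOKU, FOXE1, a forkhead factor, 16.4-fold and ELK3, an ETS factor, 5.86-fold.

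Glandular genes were split between the lines. PAX8, a factor of the Mullerian tract and kidney, had signals of 5648 and 5474 in BOKU and 425 and 381 in SKG-I, a difference of 3.79 ± 0.08. GATA3, a factor of luminal and urothelial cells, had 1393 and 1666 against 45.4 and 18.4. CEACAM1, a cell adhesion protein, was 2.80-fold higher in BOKU, but its signals there were 304 and 505, and without array 1 of SKG-I the difference of 1.48 dropped to 0.97, short of 2-fold. In SKG-I, the surface mucin MUC16 had 793 and 798 against 4.84 and 4.70 in BOKU. EPCAM, the epithelial adhesion molecule, had 1536 and 1518 against 50.9 and 17.9, and the tetraspanin TSPAN8 had 5132 and 5911 against 268 and 266. In all, 3 of 11 members that reached 500 were higher in BOKU and 4 in SKG-I. Positional identity genes differed as well. HOXB2 was at least 18.1-fold and HOXD4 3.20-fold higher in BOKU, HOXC6 was 6.93-fold and HOXC10 5.14-fold higher in SKG-I, and 4 of the 8 HOX genes that reached 500 were below 2-fold. CT83, a cancer-testis antigen, had 2279 and 2276 in SKG-I against 19.6 and 17.6 in BOKU.

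Mesenchymal genes were spread over both lines, with the largest differences in BOKU. Of 27 members that reached 500, 16 were higher in BOKU and 9 in SKG-I, with a median of 1.28. VIM, the intermediate filament vimentin, had 28540 and 36184 in BOKU against 929 and 875 in SKG-I, a difference of 5.16 ± 0.18. FN1, fibronectin, had 34705 and 36297 against 639.5 and 535, 60.7-fold higher in BOKU. SNAI2, a repressor of epithelial genes in EMT, had 10692 and 10726 against 240.2 and 236. For these 3 genes both BOKU arrays were far above both SKG-I arrays. ZEB1, another EMT repressor, was 2.43-fold higher in BOKU, with 2012 and 1837 against 805 and 779. The members higher in SKG-I included fibrillar collagens. COL3A1 had 1965 and 2013 in SKG-I against 26.0 and 19.1 in BOKU, and COL1A1 5574 and 5684 against 1365 and 1398. FOXC2, a forkhead factor of mesenchyme, was at least 10.6-fold and S100A4, a calcium-binding protein of motile cells, 9.58-fold higher in SKG-I. CDH2, N-cadherin, had 1608 and 1743 in SKG-I and 1143 and 1147 in BOKU, below 2-fold. The epithelial cadherin CDH1 did not reach 500 in either line and was at 143 and 173 in SKG-I against 2.13 and 3.15 in BOKU.

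Some of these genes are also expressed by fibroblasts, whose 14 annotated markers summed to 34255 to 35682 on the BOKU arrays and 23647 to 24107 on the SKG-I arrays. Of the 6 that reached 500, 2 were higher in BOKU, POSTN and MMP2, and 3 in SKG-I, COL1A1, COL3A1 and COL5A1. Leukocyte markers were under 500 for all 21 annotated genes, the highest being LCP1 at 188, with sums of 923 to 1175 in BOKU and 729 to 792 in SKG-I, and the leukocyte antigen PTPRC did not exceed 19.9. Endothelial markers were under 500 for all 13, the highest being PECAM1 at 472, with sums of 761 to 864 in BOKU and 357 to 477 in SKG-I. Of 10 stress and housekeeping genes, 2 were higher in BOKU (DNAJB1 and HMOX1), 1 in SKG-I (SDHA), and the other 7 were below 2-fold. The part of culture stress in any result was not tested.

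**Figure D3:**
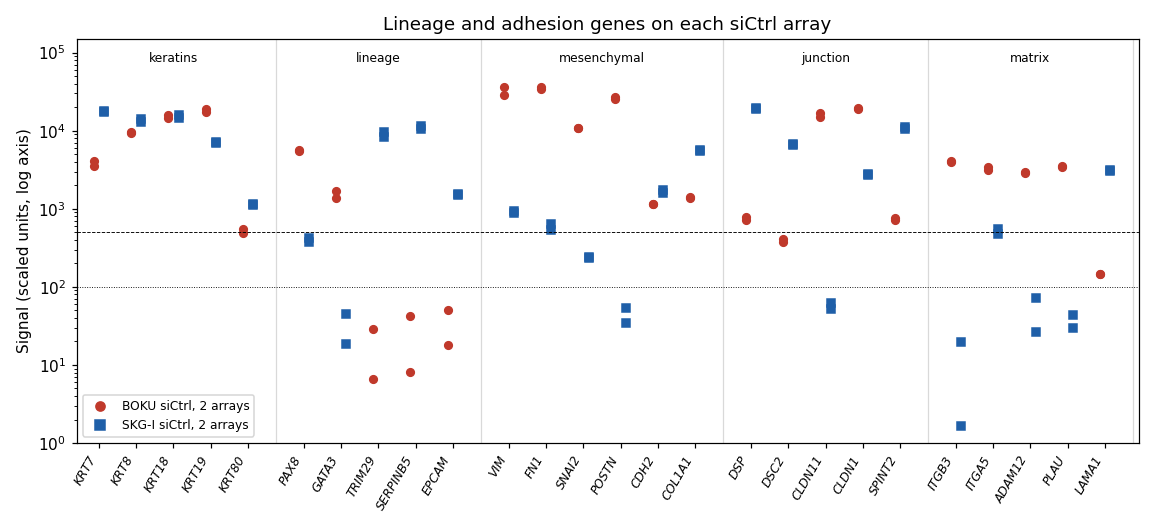
MAS5 signal (vertical axis, log scale, scaled units) of lineage and adhesion genes on the 2 siCtrl arrays of BOKU (red circles) and of SKG-I (blue squares), with dashed and dotted lines at 500 and 100. KRT8 and KRT18 are strong in both lines, while VIM, FN1, SNAI2, POSTN, CLDN11 and ITGB3 are high in BOKU and TRIM29, SERPINB5, EPCAM, DSP and LAMA1 in SKG-I.

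Genes of cell contacts differed in both directions. DSP, desmoplakin, which ties desmosomes to keratins, had signals of 19568 and 18699 in SKG-I and 711 and 783 in BOKU, 25.6-fold higher in SKG-I. DSC2, a desmosomal cadherin, had 6807 and 6605 against 412 and 378, and JUP, plakoglobin, 5395 and 5660 against 2444 and 2384. PKP2, plakophilin, went the other way and was 3.11-fold higher in BOKU. The other 5 of 9 desmosomal members that reached 500 were below 2-fold. Among tight junction and polarity genes, 6 of 14 were higher in each line. CLDN11 had 17047 and 14844 in BOKU against 51.4 and 62.4 in SKG-I, and CLDN1 19226 and 19451 against 2743 and 2773. CGNL1, a cingulin-like junction protein, was at least 10.3-fold higher in BOKU, although its SKG-I signals of 1.45 and 34.6 differed widely between duplicates. SKG-I was higher for the protease inhibitors SPINT2, with 10662 and 11167 against 710.5 and 759, and SPINT1, with 1043 and 893 against 21.2 and 8.41, and for CXADR, a junctional virus receptor, by 9.41-fold. With no filter SPINT1 was represented by another probe set, and its difference became −0.25, short of 2-fold.

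Cadherins and nectins differed in both directions too. NECTIN3 had 3005 and 2534 in BOKU against 52.7 and 42.4 in SKG-I, while NECTIN4 had 745 and 658 in SKG-I against 13.02 and 46.9 in BOKU. NECTIN2 was 2.43-fold higher in SKG-I, the cadherin CDH19 at least 7.38-fold and the protocadherin PCDH7 4.29-fold, and the atypical cadherin FAT4 was 3.03-fold higher in BOKU. Of 27 immunoglobulin-like and other adhesion molecules that reached 500, 12 were higher in BOKU and 9 in SKG-I. CD9, a tetraspanin, had 7491 and 7501 in SKG-I against 40.9 and 17.9 in BOKU. CADM1, a cell adhesion molecule of epithelium and nerve, had 3034 and 3327 against 39.3 and 9.84, and the neural adhesion molecule CHL1 1923 and 1627 against 7.76 and 2.64. NRP1, neuropilin, a receptor for semaphorins and VEGF, had 3097 and 2741 in BOKU against 41.5 and 52.9 in SKG-I, and its ligand SEMA3A was 19.3-fold higher in BOKU too. EFNB2, an ephrin, was at least 23.4-fold higher in BOKU.

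Genes of matrix attachment and matrix degradation were more often higher in BOKU. Of 10 integrin subunits that reached 500, 5 were higher in BOKU and 0 in SKG-I, with a median of 1.03. ITGB3, a subunit of the vitronectin receptor, had 3947 and 4112 against 1.67 and 19.4, and ITGA5, a subunit of the fibronectin receptor, 3463 and 3120 against 551 and 482. ITGA2, a collagen receptor subunit, had 3451 and 2921 against 550.5 and 557, a difference of 2.52 ± 0.12. With siIGF2R the difference of ITGA2 was −1.57, and the median of the integrin subunits was 0.28. Of 17 matrix proteases and inhibitors, 12 were higher in BOKU and 0 in SKG-I, with a median of 1.63, and 8 passed 8-fold. PLAU, urokinase, had 3451 and 3572 in BOKU against 43.3 and 29.7 in SKG-I, and PLAT, the tissue-type plasminogen activator, 3981 and 4431 against 61.2 and 48.9. ADAM12, a membrane metalloprotease, had 3002 and 2890 against 71.7 and 26.7. The inhibitors TIMP1 and TIMP2 and the urokinase receptor PLAUR were below 2-fold. Over both siRNAs limma called 12 of these 17 genes higher in BOKU and 1 higher in SKG-I.

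Structural matrix genes were shared out between the lines. Of 28 laminins, collagens and related genes that reached 500, 6 were higher in BOKU, 8 in SKG-I and 14 were below 2-fold. TNC, tenascin, had 7972 and 6742 in BOKU against 84.1 and 109.6 in SKG-I, and SPP1 had 9268 and 9335 against 91.3 and 113. COL13A1, a transmembrane collagen, was at least 27.2-fold higher in BOKU. Basement membrane genes were found on both sides. In SKG-I, LAMA1, a laminin chain, had 3052 and 3170 against 147 and 144, and NID2, nidogen, 2741 and 2673 against 48.9 and 17.1. EFEMP1, a fibulin, was 8.68-fold higher in SKG-I. LAMB2, another laminin chain, named here after its values were seen, had 602 and 666 in BOKU against 8.25 and 77.1 in SKG-I.

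The receptors EGFR and ERBB2 were below 2-fold between the lines. EGFR had signals of 4110 and 4073 in BOKU and 2902 and 2857 in SKG-I, a difference of 0.51 ± 0.01. ERBB2 had 644 and 636 in BOKU against 742 and 566 in SKG-I, and its arrays overlapped. The ligands differed more, with TGFA 3.28-fold and NRG1 4.54-fold higher in BOKU and NRG4 at least 5.29-fold higher in SKG-I. The feedback inhibitor ERRFI1 was 2.54-fold higher in BOKU, and LRIG3, a membrane protein of this pathway, 5.49-fold higher in SKG-I. IGF1R, the receptor for IGF ligands, had 4357 and 3892 in BOKU and 6579 and 6212 in SKG-I, and like IGF2R it was below 2-fold. The IGF binding proteins differed, IGFBP6 with 13665 and 13712 in BOKU against 745 and 669 in SKG-I and IGFBP5 with 1164 and 1024 in SKG-I against 46.7 and 94.5 in BOKU. Among other receptor tyrosine kinases and ligands, ROR1 was at least 30.9-fold and VEGFC 10.0-fold higher in BOKU, and FGFR3 was at least 5.41-fold and PDGFD at least 5.06-fold higher in SKG-I. Of that list, 6 of 24 were higher in each line.

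Genes induced by ERK signaling were more often higher in BOKU. Of 22 ERK feedback and immediate early genes that reached 500, 14 were higher in BOKU and 2 in SKG-I, with a median of 1.41. DUSP6, an ERK phosphatase that ERK induces, had 1815 and 2033 in BOKU against 120.3 and 70.0 in SKG-I. PHLDA1 had 15096 and 14766 against 992 and 892, and CCND1, cyclin D1, 9473 and 9288 against 924 and 882. DUSP2, another phosphatase, had 446 and 528 in SKG-I against 5.66 and 8.44 in BOKU, and JUNB was 2.52-fold higher in SKG-I. Over both siRNAs limma called 13 of the 22 higher in BOKU and 6 higher in SKG-I.

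Genes of the TGF-beta and BMP pathway differed in both directions. TGFBR2, a TGF-beta receptor, had 20606 and 22693 in BOKU against 2088 and 2310 in SKG-I, and INHBA, an activin subunit, 1971 and 2011 against 62.7 and 78.3. The ligand BMP2 had 5601 and 5589 in SKG-I against 458 and 457 in BOKU, and the BMP-induced genes ID1 and ID3 had 18070 and 18785 against 1889 and 2220 and 19638 and 16005 against 197 and 145. Another BMP ligand, BMP4, had 769.7 and 924 in BOKU against 5.90 and 5.58 in SKG-I. Of 29 pathway genes that reached 500, 10 were higher in BOKU and 9 in SKG-I. In the WNT pathway 2 of 11 were higher in BOKU and 4 in SKG-I. The antagonist SFRP1 had 16069 and 16172 in SKG-I against 59.1 and 68.1 in BOKU, the agonist RSPO3 2445 and 2702 against 37.0 and 53.2, and the receptor FZD10 430 and 519 against 5.53 and 18.6. DKK3, described above, and the receptor FZD2 were the members higher in BOKU. FZD2 was 2.17-fold higher there, but without array 2 of BOKU its difference of 1.12 dropped to 0.79. In the Notch pathway the receptor NOTCH2 was 3.45-fold higher in BOKU, and the target HES1 2.66-fold, the glycosyltransferase LFNG at least 5.37-fold and DTX3 2.98-fold higher in SKG-I. Without array 1 of SKG-I the difference of HES1, −1.41, became −0.57, since another probe set then represented the gene.

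Proliferation genes were more often higher in SKG-I. Of 24 proliferation genes that reached 500, 16 were higher in SKG-I and 0 in BOKU, with a median of −1.76. RRM2, a ribonucleotide reductase subunit, had 3433 and 3535 in SKG-I against 452 and 411 in BOKU. UBE2C, a ubiquitin ligase partner of mitosis, had 3302 and 3477 against 449 and 419, and BIRC5, survivin, 1825 and 1864 against 307 and 297. Genes of the p53, RB and cell cycle inhibitor list differed in both directions. Of 24 that reached 500, 5 were higher in BOKU, 7 in SKG-I and 12 were below 2-fold, with a median of −0.06, and over both siRNAs limma called 8 higher in BOKU and 6 higher in SKG-I. Cyclin E was higher in SKG-I, with CCNE1 at 717 and 751 against 123 and 149 and CCNE2 3.71-fold higher, and CCNB1, cyclin B, was 2.94-fold higher. The G1 kinase CDK6 went the other way with 9338 and 9843 in BOKU against 2814 and 2909 in SKG-I, as did the death receptor FAS, 3.74-fold higher in BOKU, and SESN2, a stress-induced sestrin, 2.81-fold. CDKN2A, the inhibitor p16, which is strong in many cervical cancers, had 14015 and 13948 in BOKU and 10342 and 10863 in SKG-I, below 2-fold. Further cell cycle inhibitors are named here after their values were seen. CDKN1A had 15057 and 15892 in SKG-I against 5186 and 6389 in BOKU, and CDKN1B 7062 and 5999 against 2644 and 2323. CDKN1C had 2997 and 3351 in SKG-I against 1032 and 1192 in BOKU. CDKN2B, with 4833 and 4337 in BOKU and 4285 and 4211 in SKG-I, was below 2-fold. With siIGF2R the median of the 24 proliferation genes was −0.55, and limma called 14 of them higher in SKG-I over both siRNAs and 0 higher in BOKU.

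**Figure D4:**
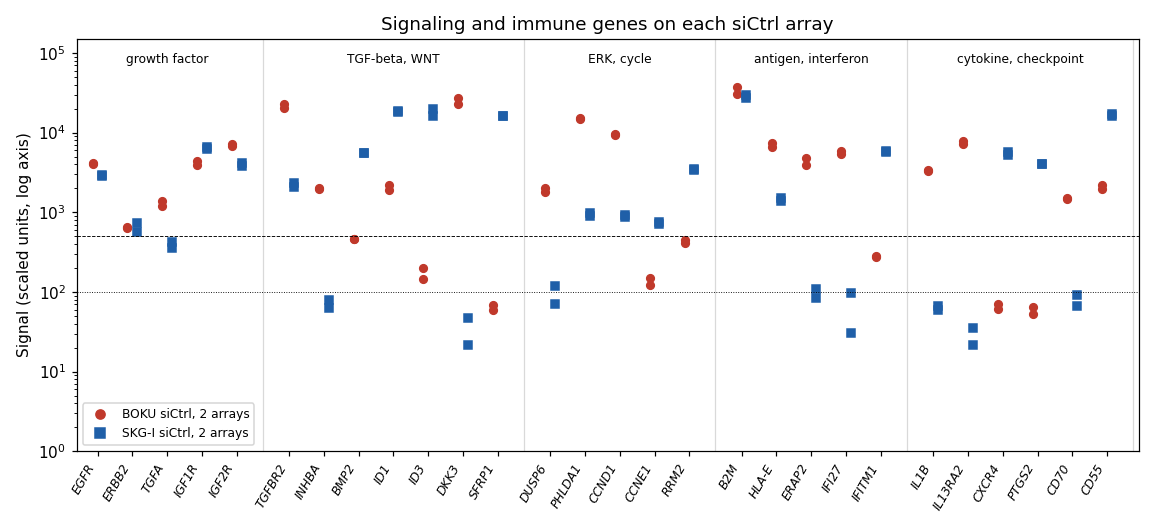
MAS5 signal (vertical axis, log scale, scaled units) of signaling and immune genes on the 2 siCtrl arrays of BOKU (red circles) and of SKG-I (blue squares), with dashed and dotted lines at 500 and 100. EGFR, ERBB2, IGF1R, IGF2R and B2M lie close together in the 2 lines, while DUSP6, CCND1, ERAP2, IFI27 and IL1B are higher in BOKU and BMP2, ID3, SFRP1, IFITM1, CXCR4 and PTGS2 in SKG-I.

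Antigen presentation genes were more often higher in BOKU. B2M, the light chain shared by MHC class I molecules, had signals of 30405 and 37493 in BOKU and 27483 and 29418 in SKG-I, a difference of 0.25 ± 0.16. Of 17 MHC class I presentation genes that reached 500, 7 were higher in BOKU and 0 in SKG-I, with a median of 0.79. HLA-E, a nonclassical molecule read by NK cells, had 6583 and 7440 against 1392 and 1490. ERAP2, a peptidase that trims peptides, had 4741 and 3948 against 84.8 and 108, and PSMB9, an immunoproteasome subunit, 894 and 1036 against 113 and 126. HLA genes are alike in sequence and vary between people, so their probe sets may not read every allele equally. The 14 MHC class II genes were under 500 on all 4 arrays, the highest being HLA-DMA at 182.

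Interferon-stimulated genes were more often higher in BOKU with siCtrl. Of 31 that reached 500, 15 were higher in BOKU and 4 in SKG-I, with a median of 0.98. IFI27 had 5391 and 5827 in BOKU against 97.3 and 30.8 in SKG-I, LGALS3BP, a secreted glycoprotein, 5759 and 6501 against 309 and 289, and TRIM22, an antiviral ubiquitin ligase, 5244 and 5012 against 305 and 301. IFITM1, an antiviral membrane protein, went the other way with 5926 and 5707 in SKG-I against 282 and 272 in BOKU, as did EPSTI1, 4.13-fold higher in SKG-I, and IFI35, 3.24-fold. With siIGF2R, the median of the same 31 genes was −0.55, and limma called 7 of them higher in BOKU over both siRNAs and 8 higher in SKG-I. Among innate sensors and interferon receptors, 5 of 19 were higher in each line. The DNA sensor AIM2 had 543 and 539.8 in BOKU against 28.2 and 32.1 in SKG-I, and NLRP2 had 2929 and 2680 in SKG-I against 97.99 and 15.9 in BOKU. STING1 was 2.42-fold and SOCS1, a feedback inhibitor, 5.15-fold higher in BOKU, and SOCS2 was 3.96-fold and IFNAR2, a receptor chain, 2.62-fold higher in SKG-I.

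More cytokine genes were higher in BOKU than in SKG-I. Of 37 cytokines, chemokines and NF-kB targets that reached 500, 18 were higher in BOKU and 8 in SKG-I, with a median of 0.99, and 13 and 5 passed 8-fold. IL1B had 3328 and 3413 in BOKU against 60.1 and 67.3 in SKG-I, and IL1A 1341 and 1113 against 2.67 and 8.21. IL13RA2, a decoy receptor for interleukin 13, had 7248 and 7767 against 35.1 and 21.4. CXCR4, a chemokine receptor of migrating cells, had 5628 and 5170 in SKG-I against 70.3 and 61.5 in BOKU. PTGS2, the prostaglandin-forming cyclooxygenase, had 4021 and 4040 against 64.8 and 52.6, and PTGES, the next enzyme of that path, 856 and 794 against 78.6 and 87.3. Surface regulators of immunity and complement differed too. CD70, a costimulatory ligand, was at least 14.9-fold higher in BOKU, VSIR, an inhibitory ligand, 10.8-fold, CD47, which restrains phagocytes, 2.71-fold, and CFI, a complement protease, 5.55-fold. The complement inhibitor CD55 had 16349 and 17284 in SKG-I against 2184 and 1970 in BOKU, and CLU, clusterin, 10241 and 10541 against 958 and 949.6. CD46, another complement inhibitor, was 2.05-fold higher in BOKU, a difference of 1.04 that became 0.95 after quantile normalization. MICA, a ligand of NK cells, was 2.25-fold and C1RL, a complement protease, 2.12-fold higher in SKG-I, and the difference of C1RL, −1.08, became −0.86 without array 2 of BOKU.

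The promoters of some of these genes carry short motifs of the pathways named above, and 5 are printed to show what such a motif looks like beside the signals. The genes were chosen after their values and matches were seen. The sequences come from RefSeq on GRCh38.p14, cover the 250 bases before the transcription start, and carry the matched letters in capitals. In CXCL1, a neutrophil chemokine with signals of 859.5 and 877 in BOKU and 5.47 and 12.9 in SKG-I, and IL6, with 1023 and 1132 against 56.3 and 13.9, the capitals mark the kB motif of NF-kB, which is GGGA, 1 free base and TTTCC. In IFI27 and IFIT3, the latter an antiviral gene with 2371 and 2479 in BOKU against 471 and 594 in SKG-I, they mark the core of the interferon-stimulated response element (ISRE), which is GAAA, 2 free bases and GAAA, on either strand. In DSP they mark the E-box CAGGTG, which SNAI2 and ZEB1 are known to bind.
CXCL1 promoter, chr4:73869143-73869392, plus strand: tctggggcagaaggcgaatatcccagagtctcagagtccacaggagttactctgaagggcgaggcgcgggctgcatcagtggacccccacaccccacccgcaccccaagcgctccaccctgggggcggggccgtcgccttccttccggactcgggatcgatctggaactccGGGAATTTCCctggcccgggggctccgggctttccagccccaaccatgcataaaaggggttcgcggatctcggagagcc
IL6 promoter, chr7:22726950-22727199, plus strand: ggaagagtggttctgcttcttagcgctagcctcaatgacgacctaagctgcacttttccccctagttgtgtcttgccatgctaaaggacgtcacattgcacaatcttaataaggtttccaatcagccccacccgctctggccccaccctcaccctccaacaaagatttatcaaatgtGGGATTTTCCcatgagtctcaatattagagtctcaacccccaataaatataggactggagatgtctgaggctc
IFI27 promoter, chr14:94110486-94110735, plus strand: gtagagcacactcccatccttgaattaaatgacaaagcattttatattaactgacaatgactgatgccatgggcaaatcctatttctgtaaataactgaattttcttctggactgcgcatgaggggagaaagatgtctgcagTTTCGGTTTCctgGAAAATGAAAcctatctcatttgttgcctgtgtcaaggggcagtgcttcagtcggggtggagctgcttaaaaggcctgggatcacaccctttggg
IFIT3 promoter, chr10:89327747-89327996, plus strand: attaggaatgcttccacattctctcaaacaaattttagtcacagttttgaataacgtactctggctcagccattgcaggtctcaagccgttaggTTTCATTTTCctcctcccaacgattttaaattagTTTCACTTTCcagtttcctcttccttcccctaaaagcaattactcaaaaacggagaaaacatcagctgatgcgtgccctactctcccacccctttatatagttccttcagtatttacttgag
DSP promoter, chr6:7541421-7541670, plus strand: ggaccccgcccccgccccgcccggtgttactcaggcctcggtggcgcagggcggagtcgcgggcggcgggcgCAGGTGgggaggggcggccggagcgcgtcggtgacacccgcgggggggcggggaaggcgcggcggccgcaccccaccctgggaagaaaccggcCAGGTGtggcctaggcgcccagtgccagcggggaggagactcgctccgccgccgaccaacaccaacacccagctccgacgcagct

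The kB motif was found in 0.558% of all 35116 RefSeq promoters of 300 bases, searched on both strands over 250 bases before and 50 after the start. It was found in 4 of the 13 cytokine, chemokine and NF-kB list members that were higher in BOKU and had a promoter entry. The 4 were CXCL1, IL6, IL32 and NFKBIZ. Of the 7 members higher in SKG-I with a promoter entry, 0 carried the motif. Over all genes it was in 1.14% of promoters of genes higher in BOKU and 0.56% of those higher in SKG-I. The ISRE core was in 3.57% of all promoters. Among interferon-stimulated genes with a promoter entry it was in 9 of the 12 higher in BOKU and in 2 of the 3 higher in SKG-I. The ISRE core thus occurred in genes of both directions. Over all genes it was in 4.08% of promoters of genes higher in BOKU and 1.76% of those higher in SKG-I. The E-box was in 20.6% of all promoters, in 19.2% of those of genes higher in SKG-I and in 17.4% of those of genes higher in BOKU. Members were listed as NF-kB targets or as interferon-stimulated genes, so all promoters are no fair background for these lists. Whether either pathway was more active in a line was not tested. A match says that these letters stand in the window, and none of the 3 motifs overlapped another in the sequences shown.

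The siIGF2R arrays hold other RNA samples of the same lines, so the line difference can be measured again there, with IGF2R knocked down in both. Across all genes, which are not independent, the differences with siCtrl and with siIGF2R had a Pearson correlation of 0.924. Of the 2827 genes that differed 2-fold with siCtrl, 1859 (65.8%) did so in the same direction with siIGF2R and 9 in the opposite direction. On the siIGF2R arrays, 1123 of the 8412 genes were 2-fold higher in BOKU and 1143 in SKG-I. Of the 659 genes past 8-fold, 639 were at least 2-fold apart with siIGF2R, 474 at least 8-fold, and 0 lay 2-fold in the opposite direction. Limma over both siRNAs called 3845 genes in all, among them 2540 of the 2827 genes and 639 of the 659. That fit includes the siCtrl arrays on which these genes were counted, so its calls are not independent of the counts. Of the 151 named genes at 2-fold, 144 were called, and the other 7 were CCNB1, CD46, CEACAM1, ITGA2, LFNG, NRG4 and STING1.

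SNAI2 had a difference of 5.49 with siCtrl and 5.52 with siIGF2R (limma log2 difference 5.50, standard error 0.19, adjusted p = 0.000251). FN1 had 5.92 with siCtrl and 4.87 with siIGF2R (adjusted p = 0.000407 from limma), and LAMA1 −4.41 and −5.45 (adjusted p = 0.000611 from limma). VIM had 5.16 and 7.36 (adjusted p = 0.00114 from limma). Other genes were closer together with siIGF2R. DSP had −4.68 with siCtrl and −2.05 with siIGF2R, and DSC2 −4.09 and −1.59. With signals under 100 set to 100, DUSP6 had 4.13 with siCtrl against 1.23 with siIGF2R, and IFI27 5.81 against 3.07. KRT19 had 1.33 with siCtrl and 3.03 with siIGF2R. EGFR, below 2-fold with siCtrl at 0.51, had −1.16 with siIGF2R. Its limma difference over both siRNAs was −0.33 (standard error 0.39, adjusted p = 0.523 from limma), since the values had opposite signs. Each adjusted p here is for the line difference over both siRNAs, and none tests a change between them. Whether any of these changes exceeds the spread between cultures cannot be tested with 1 RNA sample per line and siRNA.

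**Figure D5:**
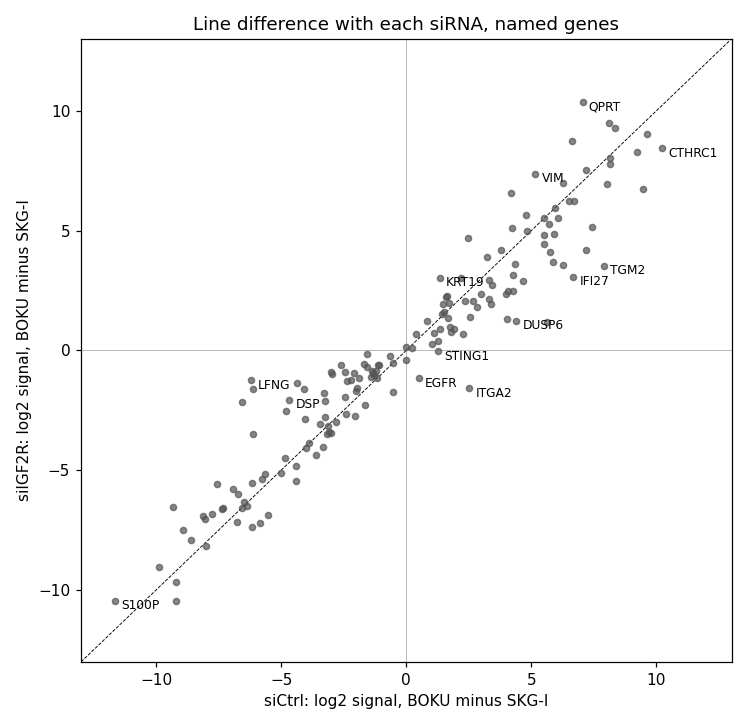
Difference between the lines in log2 signal (BOKU minus SKG-I) with siCtrl (horizontal axis) and with siIGF2R (vertical axis) for the 160 named genes that reached 500, with the line of equal differences dashed. Most points have the same sign on both axes, several such as LFNG and TGM2 lie well off the dashed line, and ITGA2 changes sign, at 2.52 with siCtrl and −1.57 with siIGF2R.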

How the data were processed

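RNA of BOKU and SKG-I was taken 72 h after lipofection of siCtrl or siIGF2R. The authors labeled it with a 3' IVT kit, hybridized it to GeneChip arrays and deposited MAS5 intensities, 1 per probe set and array, on a linear scale. Genes came from the platform's annotation, updated through RefSeq for 41043 of 41097 probe sets with 1 gene. No further normalization was applied.

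Signals were put on a log2 scale and the 2 arrays of each RNA sample averaged. Control probe sets (62) were removed. Of the kept probe sets, 13428 had 1 gene, 712 several and 1038 none listed, and only the first were named. A gene was represented by its kept probe set with the highest mean. In 3 of the 1005 called genes with several probe sets another probe set was 2-fold in the opposite direction. XIST and Y-linked genes are not named.

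limma 3.58.1 (R 4.3.3) fitted line and siRNA to the 4 RNA samples, with the variance trended on signal, 1 residual degree of freedom and 4.6 added, two-sided, adjusted p under 0.05. It was also run on simulated data, but these were drawn with its own fitted variances and so cannot show how cultures of a line vary. Other steps used Python 3.11.15, pandas 2.3.3 and scipy 1.17.1. RNA samples per line and siRNA are single. The p values therefore rest on how far the line difference changed between the siRNAs, with variance estimates shared across probe sets. They do not measure the spread between cultures of a line.

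Named were up to 3 genes per list and direction with the largest differences, the 10 largest in each direction, and a set of lineage, receptor and immune genes. Differences were ranked with signals under 100 set to 100. Members and lists were chosen with earlier results of these data known. Genes with no named probe set were not analysed here. Alternatives covered the filter, scaling, floor, added constant, mean, choice of probe set, siRNA and each array. The number of arrays limits the precision.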

Additional observations from a re-analysis of the deposited data

Results flagged for a closer look

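ITGA2, the collagen receptor subunit, stood 2-fold higher in BOKU with siCtrl and 2-fold higher in SKG-I with siIGF2R. Its signals were 3451 and 2921 in BOKU and 550.5 and 557 in SKG-I with siCtrl, a difference of 2.52, and 1652 and 1673 in BOKU and 5102 and 4806 in SKG-I with siIGF2R, a difference of −1.57. The difference between these values was not tested, since each is 1 RNA sample per line.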

How the results depend on the processing

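With no filter, 3110 genes were at least 2-fold and 644 at least 8-fold higher in BOKU, 3367 and 662 in SKG-I, and limma called 10957 probe sets. With a filter at 1000, 202 genes were 8-fold higher in SKG-I, and with 64 added to the signals 215. Without the siRNA as a block, limma called 3078 probe sets. Leaving out 1 array gave 1246 to 1306 genes 2-fold higher in BOKU, 1501 to 1565 in SKG-I, 313 to 329 and 319 to 333 at 8-fold, and 6617 to 7058 limma calls. The methods' t-test over duplicate arrays, which measures array error, kept 1250 and 1492 of the 2-fold genes at its threshold and 1183 and 1392 after Benjamini-Hochberg adjustment. List medians with no filter were 0.64 for integrins, 0.62 for matrix proteases, 0.68 for mesenchymal genes, 0.44 for interferon-stimulated genes and −0.65 for squamous differentiation genes (−0.72 with a filter at 1000, −2.40 with the floor, −2.45 with 64 added, −2.32 with siIGF2R and −3.83 to −2.23 without 1 array). Without _s_at and _x_at probe sets the mesenchymal median was 0.64. With siIGF2R the medians were 0.28 for integrins, 0.40 for mesenchymal genes, 0.68 for ERK feedback genes and 0.19 for MHC class I genes. Over 29 lists, 102 of 377 medians on the siCtrl arrays moved by more than the duplicates do and 15, of 11 lists, changed sign. Among these lists was that of p53, RB and cell cycle inhibitors. Its median of −0.06 became 0.07 with a filter at 1000 and 0.02 without array 2 of BOKU. The text does not give the medians of the others. With siIGF2R 6 medians changed sign, that of interferon-stimulated genes among them. Of 151 named 2-fold genes, 6 (C1RL, CD46, CEACAM1, FZD2, HES1 and SPINT1) fell short of 2-fold in at least 1 siCtrl setting that measured them. On the siIGF2R arrays 21 fell short, ITGA2 reversed to −1.57 and STING1 to −0.03. No paired analysis was possible because the arrays with the same number are duplicates of 1 RNA sample, so their number marks no shared culture. Signals under 100 on both arrays of the lower line limit the size of 433 of the 8-fold differences.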
